A study of Mus musculus with 9 samples.

Results

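Messenger RNA of 44 lysosomal genes was examined in alveolar macrophages, the phagocytes that live in the airspaces of the lung, sorted from mice aged 1 week. The 44 genes were taken by symbol. They comprise lysosomal enzymes and their activator proteins, lysosomal membrane proteins, subunits of the vacuolar proton pump (V-ATPase) and 3 MiT/TFE transcription factors. All 44 were found among the 27179 genes of the count table, and all 44 passed the filter on low counts that left 12840 tested genes. Suz12 cKO mice (5 libraries) carried a conditional knockout of Suz12 and were set against wild type mice (4 libraries), all on a C57BL/6 background. Suz12 is a core subunit of Polycomb repressive complex 2, which methylates histone H3 and keeps target genes silent. Libraries of a group are described by the submitters as biological replicates. No source used here gives the Cre driver, the deleted exons, the sex, how the cells were gated or whether mice were pooled.

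Lysosomes break down what a macrophage takes up, and alveolar macrophages are known for clearing surfactant lipid and protein by this route. The V-ATPase acidifies the lysosome. Its V1 sector in the cytosol splits ATP, and its V0 sector in the membrane carries the protons. TFEB, TFE3 and MITF are transcription factors that bind a short E-box, the CLEAR element, in front of many lysosomal genes, and mTORC1 signalling at the lysosome holds TFEB and TFE3 in the cytosol.

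Libraries held 18.6 to 45.6 M counts in Suz12 cKO and 13.8 to 25.3 M in wild type. The 44 genes took 2.22 to 2.53% of all counts in Suz12 cKO libraries and 2.07 to 2.19% in wild type libraries. Without Psap, the most counted of them, the shares overlapped, at 1.44 to 1.59% in Suz12 cKO and 1.39 to 1.49% in wild type. Thinned to 13814799 counts each, Suz12 cKO libraries detected 15272 ± 391 genes (SD, n = 5) and wild type libraries 12981 ± 400.2 genes (SD, n = 4), a difference with an exact two-sided permutation p of 0.00794, the smallest that 5 against 4 libraries allow. Suz12 itself stood at 11.9 to 21.8 CPM (counts per M, TMM-scaled) in Suz12 cKO and 51.7 to 76.7 CPM in wild type, a log2 fold change of -2.06 with SE 0.18 and an adjusted p of 1.69e-05. Every log2 fold change is Suz12 cKO over wild type, from edgeR's quasi-likelihood test across all tested genes with Benjamini-Hochberg adjustment, and a gene is called when its adjusted p is under 0.05. The 12 alveolar macrophage markers summed to 15742 to 42514 CPM in Suz12 cKO and 23008 to 61319.6 CPM in wild type. Of these, Marco was higher (log2 fold change 0.54, adjusted p = 0.000266) and Car4 lower (-0.96, adjusted p = 0.0172), and 10 were not called. Summed markers of interstitial macrophages and monocytes stood at 315 to 551 CPM in Suz12 cKO and 193 to 370.2 CPM in wild type, those of neutrophils at 19.6 to 107 and 21.7 to 29.8 CPM, those of dendritic cells at 2.22 to 8.14 and 3.89 to 22.8 CPM, and those of erythroid cells at 13.6 to 172 and 10.7 to 67.4 CPM. Summed markers of fibroblasts, endothelial cells, T cells and B cells stayed at 14.9 CPM or less in every library. Those of alveolar type 2 cells stood at 209 to 254 CPM in Suz12 cKO and 179 to 189.7 CPM in wild type without overlap. Most of that came from Napsa and Abca3, while the surfactant gene Sftpc was at 3.10 to 6.54 and 2.56 to 10.8 CPM. Ccr7 on the dendritic cell list was lower (-2.09, adjusted p = 0.0360), and no tested marker of neutrophils, type 2 cells, fibroblasts, endothelial cells, T cells, B cells or erythroid cells was called. Elane, a neutrophil granule protease, had 0 counts in all 9 libraries. The part of other cells in the results was not tested. In such bulk samples, fewer cells of a type and less RNA per cell cannot be told apart.

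Of the 44 genes, 4 were higher and 6 lower in Suz12 cKO, 22.7% of them, against 19.9% of all tested genes called in either direction. In 1 direction, 8.97% of all tested genes were called higher and 11.0% lower. The Suz12 cKO and wild type libraries did not overlap for 10 of the 44 genes, against 20.8% of all tested genes. Both shares lie near the background. Their median log2 fold change was -0.02, beside 0.04 for all tested genes, and 22 lay above 0 and 22 below. Scaled by library size alone, 66.0% of all calls were higher in place of 45.0%, the median of all genes moved to 0.15 and that of the members to 0.09, and 9 members were higher and 6 lower. The calls were spread unevenly over the roles. Among the 21 soluble enzymes and their partners 2 were called (9.52%), both higher, and among the 15 V-ATPase members 6 were called (40.0%), 5 of them lower. Whether these 2 shares differ was not tested.

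**Figure D1:**
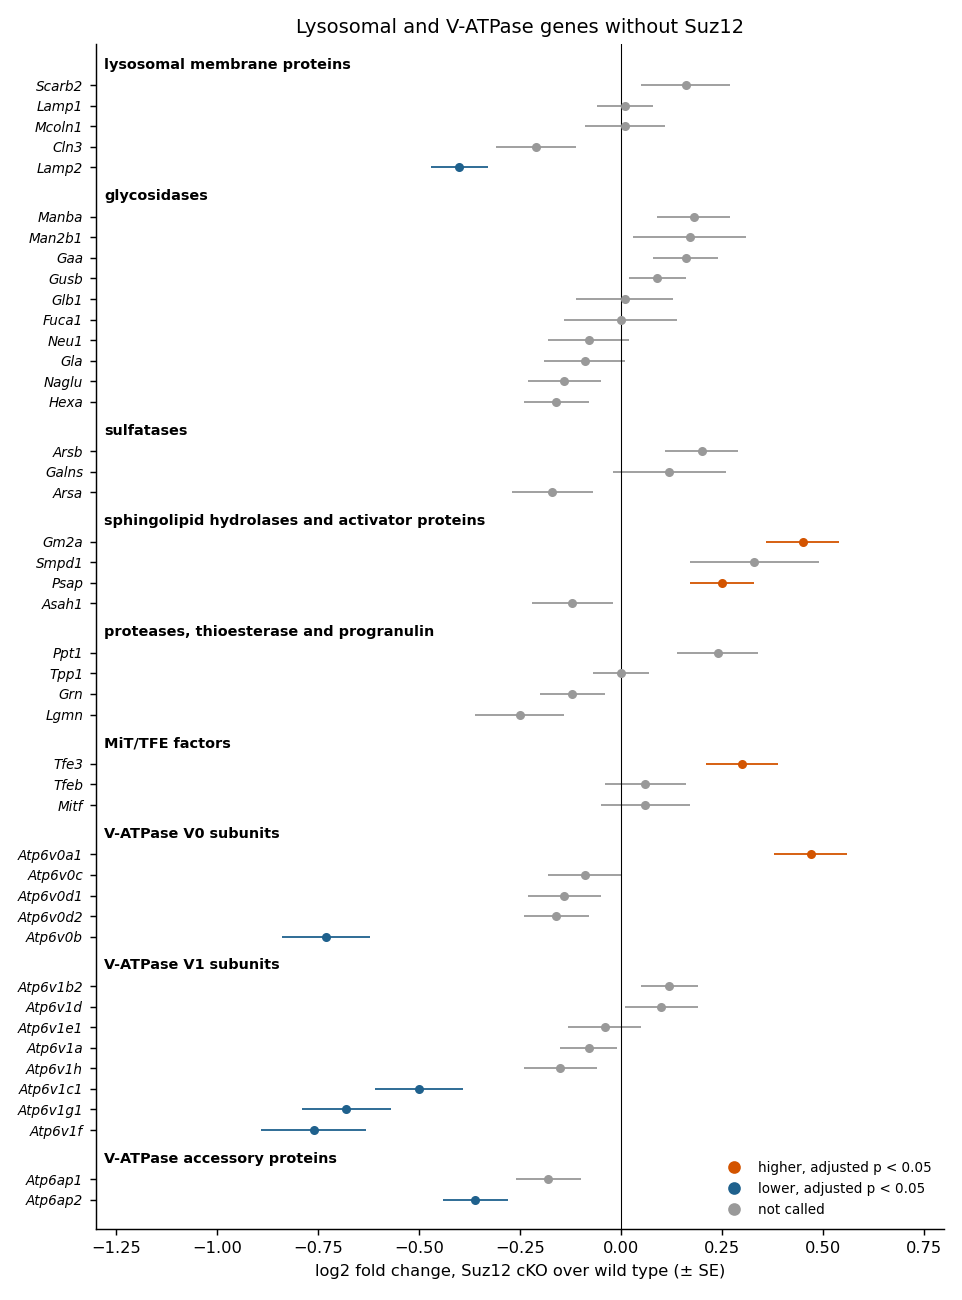
Log2 fold change (x axis, Suz12 cKO over wild type, points with SE) of the 44 genes grouped by role (y axis), coloured by call at an adjusted p under 0.05. The 10 enzymes that cut sugar bonds sit between -0.16 and 0.18, while 4 V-ATPase subunits sit at -0.50 or below.

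Levels per gene length (RPKM, the CPM over the deposited gene length in kilobases) spanned a wide range. Psap, the precursor of the saposins that present sphingolipids to lysosomal enzymes, was highest at 3163 ± 309 RPKM in Suz12 cKO (SD, n = 5) and 2666 ± 88.3 RPKM in wild type (SD, n = 4). Atp6v0d2, a V-ATPase subunit typical of osteoclasts and macrophages, came next at 605 ± 44.1 and 678 ± 44.1 RPKM. Lamp1, the main glycoprotein of the lysosomal membrane, stood at 626 ± 46.7 and 622 ± 19.7 RPKM, and Atp6v0b at 334 ± 42.1 and 554 ± 81.0 RPKM. The levels of Atp6v0d2 and Lamp1 overlapped within both groups, so their order is not resolved. At the low end were Mitf at 12.3 ± 1.22 and 11.8 ± 1.38 RPKM and Smpd1, acid sphingomyelinase, at 7.46 ± 0.954 and 5.96 ± 0.982 RPKM.

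**Figure D2:**
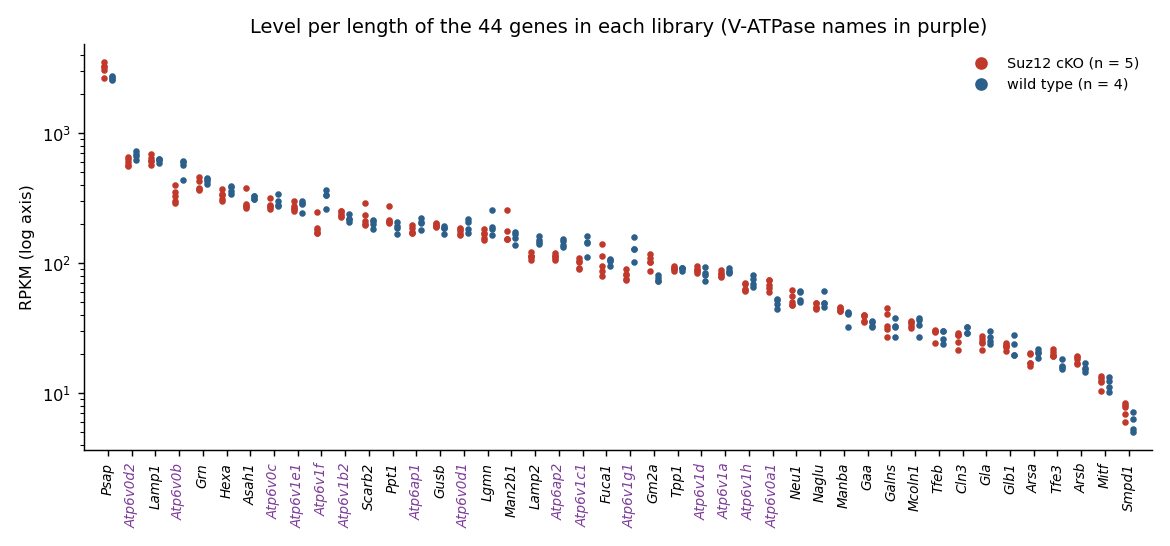
RPKM on a log axis (y) of each of the 44 genes (x, ordered by mean level) in every library, with Suz12 cKO in red on the left and wild type in blue on the right of each gene. Psap stands alone at the top (3163 RPKM on average in Suz12 cKO and 2666 in wild type) and Smpd1 lies lowest, and for most genes the groups share the same range.

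Among the lysosomal membrane proteins only Lamp2 was called. Lamp2, a membrane glycoprotein also needed for fusion with autophagosomes (Entrez Gene 16784, chromosome X, positions 38399647 to 38456460 of GRCm38), had 456, 438, 466, 506 and 464 CPM in Suz12 cKO, against 621, 577, 599 and 668 CPM in wild type. Every Suz12 cKO library lay below every wild type library. Lamp2 fell by 0.40 on the log2 scale (SE 0.07, adjusted p = 0.00181). Lamp1 had 1444, 1283, 1569, 1385 and 1379 CPM in Suz12 cKO and 1433, 1414, 1337 and 1427 CPM in wild type. Its groups overlapped (log2 fold change 0.01, SE 0.07, adjusted p = 0.950). Scarb2, the receptor that brings glucocerebrosidase to lysosomes, was at 0.16 (SE 0.11), and the calcium channel Mcoln1 at 0.01 (SE 0.10). Cln3, a membrane protein mutated in juvenile Batten disease, was at -0.21 (SE 0.10). The annotated span of Cln3 overlaps that of Apobr, and without the strand setting of the counting, reads in an overlap cannot be assigned.

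None of the 10 glycosidases was called. Their log2 fold changes ran from -0.16 for Hexa, the alpha subunit of beta-hexosaminidase, to 0.18 for Manba, the beta-mannosidase, with SEs of 0.07 to 0.14. Hexa had 619.6 ± 51.3 CPM in Suz12 cKO (SD, n = 5) and 693 ± 43.9 CPM in wild type (SD, n = 4), and Manba 163 ± 4.82 and 144 ± 16.5 CPM. Manba was the only glycosidase whose groups did not overlap, at an adjusted p of 0.176. Gaa, the acid alpha-glucosidase that degrades glycogen, was at 0.16 (SE 0.08), the alpha-mannosidase Man2b1 at 0.17 (SE 0.14) and the beta-glucuronidase Gusb at 0.09 (SE 0.07). Glb1, the beta-galactosidase, was at 0.01 (SE 0.12) and the alpha-fucosidase Fuca1 at 0.00 (SE 0.14). Neu1, a sialidase, was at -0.08, the alpha-galactosidase Gla at -0.09 and Naglu, which cuts heparan sulfate, at -0.14. Suz12 cKO libraries varied most for Man2b1, at 779 ± 195 CPM (SD, n = 5) against 690.5 ± 70.7 CPM in wild type (SD, n = 4), and Fuca1, at 261 ± 62.6 and 260.2 ± 13.3 CPM. Both were highest in Suz12 cKO replicate 3. The 3 sulfatases were not called either, with Arsb at 0.20 (SE 0.09), Galns at 0.12 (SE 0.14) and Arsa at -0.17 (SE 0.10). The spans of Hexa, Glb1, Arsa and Galns also overlap other counted genes.

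Both increases among the soluble members were in activator proteins of sphingolipid breakdown, Gm2a and Psap, and none was in an enzyme. Gm2a, the activator that lifts GM2 ganglioside for beta-hexosaminidase (Entrez Gene 14667, chromosome 11, positions 55097985 to 55113029), had 501, 438, 436, 467 and 373 CPM in Suz12 cKO and 348, 312, 311 and 327 CPM in wild type. All 5 Suz12 cKO libraries lay above all 4 wild type libraries, and Gm2a rose by 0.45 on the log2 scale (SE 0.09, adjusted p = 0.00291). Psap (Entrez Gene 19156, chromosome 10, positions 60277628 to 60302600) had 8829.6, 7335, 9588, 8403 and 9038 CPM in Suz12 cKO and 7202, 6977, 7504 and 7441 CPM in wild type. Replicate 2 of Suz12 cKO lay within the wild type range, and the other 4 lay above it. The log2 fold change of Psap was 0.25 (SE 0.08, adjusted p = 0.0464), and the call held in 2 of the 9 fits that each left out 1 library, those without Suz12 cKO replicate 2 (adjusted p = 0.0173) and replicate 3 (0.0433). In the other 7 the adjusted p ran from 0.0563 to 0.107. Smpd1 was at 0.33 (SE 0.16, adjusted p = 0.175). Asah1, the acid ceramidase, was at -0.12 (SE 0.10), and at -0.22 with an adjusted p of 0.0241 without Suz12 cKO replicate 3, which held 856 CPM against 600.4 to 645 CPM in the other Suz12 cKO libraries and 710.0 to 748 CPM in wild type. The span of Asah1 overlaps that of Frg1.

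Tpp1, Ppt1, Lgmn and Grn were not called. The tripeptidyl peptidase Tpp1 had 318 ± 10.4 CPM in Suz12 cKO (SD, n = 5) and 318 ± 8.59 CPM in wild type (SD, n = 4), with 0.00 as log2 fold change (SE 0.07). Ppt1, which removes palmitate from proteins, was at 0.24 (SE 0.10, adjusted p = 0.109), and its span overlaps that of Cap1, which drew more counts. Lgmn, an asparagine-specific protease that processes other lysosomal enzymes, was at -0.25 (SE 0.11, adjusted p = 0.148), and Grn, the precursor of progranulin, at -0.12 (SE 0.08).

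Of the 3 MiT/TFE factors among the members, Tfe3 was called by a narrow margin. Tfe3 (Entrez Gene 209446, chromosome X, positions 7762530 to 7775202) had 64.9, 67.9, 71.7, 63.7 and 63.5 CPM in Suz12 cKO and 50.2, 60.1, 53.0 and 52.4 CPM in wild type. The groups did not overlap, and the log2 fold change was 0.30 (SE 0.09, adjusted p = 0.0312). With 1 library left out at a time the call held without Suz12 cKO replicate 4, wild type replicate 2 and wild type replicate 3, and was lost in the other 6 fits (adjusted p 0.0524 to 0.0777). Tfeb had 85.9, 85.7, 84.9, 68.7 and 84.2 CPM in Suz12 cKO and 74.3, 85.1, 68.2 and 85.5 CPM in wild type (log2 fold change 0.06, SE 0.10, adjusted p = 0.704). Mitf had 53.8, 64.3, 67.3, 62.6 and 70.6 CPM in Suz12 cKO and 57.9, 64.4, 68.9 and 52.6 CPM in wild type (log2 fold change 0.06, SE 0.11, adjusted p = 0.726). Both of these overlapped between the groups. A further gene of this family, Tfec, is not a member and is counted in the mTORC1 control list below. It had the highest level of the family, at 122 RPKM in Suz12 cKO and 109.7 RPKM in wild type, and was not called (log2 fold change 0.16, SE 0.11, adjusted p = 0.353). The counts measure transcripts, and where these factors sat in the cell was not measured.

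The promoters of the 44 genes were searched for the E-box that the MiT/TFE factors bind. RefSeq windows of GRCm38.p6, from 250 bases before to 50 after a start, were listed for 37 of the 44 genes. The core TCACGTG, read on both strands and containing the shorter CACGTG, was found for 12 of those 37 genes (32.4%), against 7.04% of 9827 tested genes and 4.29% of 27025 genes with a window. The 80 bases before the start are shown for 4 genes that hold it and for Gm2a, the most raised soluble member, whose window held none. Capitals mark each CACGTG, and each line runs 5′ to 3′ on the gene's strand.
Lamp1: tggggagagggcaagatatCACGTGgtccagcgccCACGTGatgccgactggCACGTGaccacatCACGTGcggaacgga
Mcoln1: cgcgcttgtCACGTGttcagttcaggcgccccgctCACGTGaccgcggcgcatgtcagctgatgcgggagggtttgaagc
Atp6v0b: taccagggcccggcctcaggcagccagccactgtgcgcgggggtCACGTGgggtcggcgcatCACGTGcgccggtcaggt
Naglu: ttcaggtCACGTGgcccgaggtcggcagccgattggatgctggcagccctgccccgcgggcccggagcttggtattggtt
Gm2a: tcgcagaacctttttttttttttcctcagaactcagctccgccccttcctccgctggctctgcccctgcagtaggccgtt
These windows are chr8:13159081-13159160 on the plus strand for Lamp1, chr8:3500439-3500518 plus for Mcoln1, chr4:117887330-117887409 minus for Atp6v0b, chr11:101070014-101070093 plus for Naglu and chr11:55097905-55097984 plus for Gm2a. Lamp1 had 4 copies, all within the printed stretch, and Mcoln1, Atp6v0b, Cln3 and Gla had 2 each. The longer palindrome TCACGTGA was found for 5 genes (Cln3, Mcoln1, Gla, Atp6v0d1 and Atp6v1a), 13.5% of the 37 against 2.20% of tested genes. Of the 12 genes with TCACGTG, none was higher and 1, Atp6v0b, was lower, with a median log2 fold change of -0.12. Of the 692 tested genes with the match, 11.3% were higher and 11.1% lower, with a median of 0.06. Of the 25 members with a window and no match, 4 were higher and 3 lower, with a median of 0.06. Of the 9135 tested genes without it, 9.14% were higher and 10.3% lower, with a median of 0.05. The match describes letters in the window and is not evidence of a bound site.

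Transcripts of 5 of the 15 V-ATPase members fell in Suz12 cKO. Atp6v0b, the V0 proteolipid subunit known as c double prime (Entrez Gene 114143, chromosome 4, positions 117884330 to 117887333), had 327, 299, 396, 349 and 292 CPM in Suz12 cKO and 564, 434, 611 and 596 CPM in wild type. The highest Suz12 cKO library lay under the lowest wild type library. Atp6v0b fell by 0.73 on the log2 scale (SE 0.11, adjusted p = 0.000558). Atp6v1f, subunit F of the rotor stalk (Entrez Gene 66144, chromosome 6, positions 29467783 to 29470509), had 114, 108, 159, 119 and 108 CPM in Suz12 cKO and 212, 165, 231 and 215 CPM in wild type, again without overlap. Replicate 3 of Suz12 cKO came closest to wild type. Atp6v1f fell by 0.76 on the log2 scale (SE 0.13, adjusted p = 0.000933). Atp6v1g1, subunit G of the outer stalk (Entrez Gene 66290, chromosome 4, positions 63544765 to 63550701), had 89.2, 81.4, 90.1, 98.7 and 82.2 CPM in Suz12 cKO and 141, 113, 173 and 140.4 CPM in wild type. These also did not overlap (log2 fold change -0.68, SE 0.11, adjusted p = 0.000761).

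The other 2 that fell were subunit C and an accessory protein. Atp6v1c1, subunit C, which joins V1 to V0 (Entrez Gene 66335, chromosome 15, positions 38661904 to 38692444), had 214, 192, 189, 230.1 and 220.0 CPM in Suz12 cKO and 308, 232, 343 and 298 CPM in wild type. Wild type replicate 2, the lowest of its group, stood just above the highest Suz12 cKO library. Atp6v1c1 fell by 0.50 on the log2 scale (SE 0.11, adjusted p = 0.00494). Atp6ap2, the accessory protein also known as the (pro)renin receptor (Entrez Gene 70495, chromosome X, positions 12587759 to 12617051), had 251, 259, 267, 283 and 268 CPM in Suz12 cKO and 351, 315, 368 and 327 CPM in wild type. The groups did not overlap, and the log2 fold change was -0.36 (SE 0.08, adjusted p = 0.00450). In wild type, replicate 2 was the lowest library for all 5 of Atp6v0b, Atp6v1f, Atp6v1g1, Atp6v1c1 and Atp6ap2.

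Atp6v0a1 was the only V-ATPase member that rose. Atp6v0a1, an isoform of the large a subunit through which protons pass (Entrez Gene 11975, chromosome 11, positions 101009422 to 101063719), had 273, 301, 244, 261 and 301 CPM in Suz12 cKO and 214, 179, 211 and 194 CPM in wild type. All Suz12 cKO libraries were above all wild type libraries. Its log2 fold change was 0.47 (SE 0.09, adjusted p = 0.00237). The other 9 V-ATPase members were not called, with log2 fold changes from -0.18 for the accessory protein Atp6ap1 to 0.12 for Atp6v1b2, the B subunit that forms the catalytic ring with Atp6v1a (-0.08). The proteolipid Atp6v0c, which has a counted pseudogene that could share its reads, was at -0.09 (SE 0.09), Atp6v1e1 of the outer stalk at -0.04 (SE 0.09), Atp6v1d of the rotor at 0.10 (SE 0.09) and the regulatory subunit Atp6v1h at -0.15 (SE 0.09). The span of Atp6v1b2 overlaps the little counted Slc18a1.

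**Figure D3:**
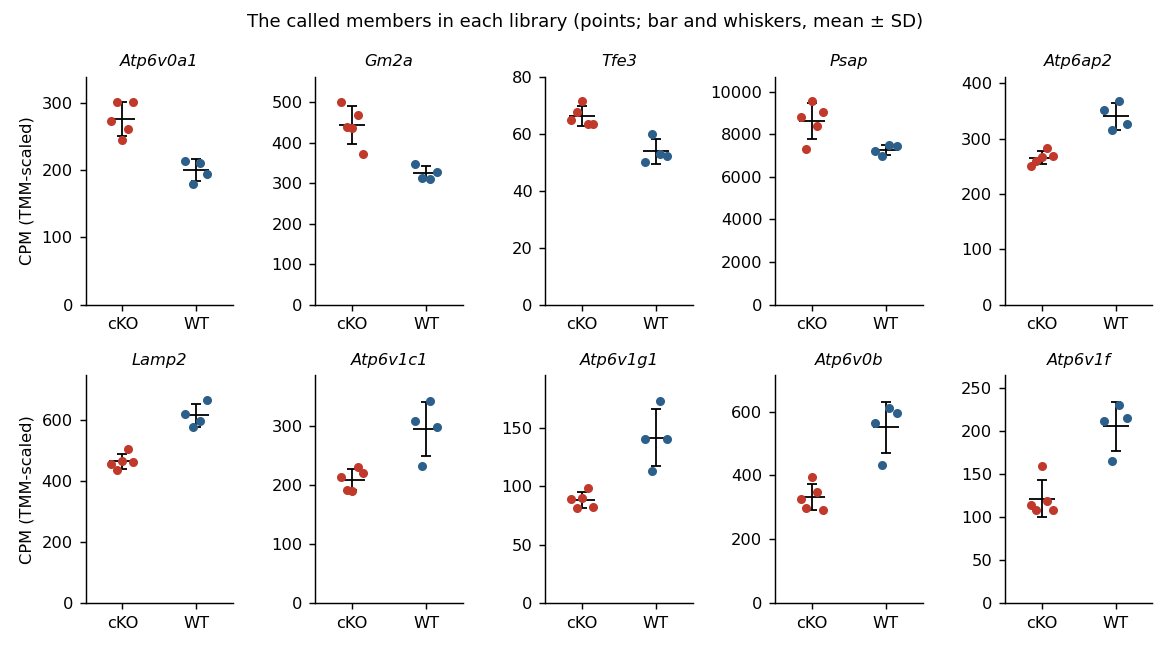
CPM (y axis, from 0) of the 10 called genes in each Suz12 cKO (cKO, 5 red points) and wild type (WT, 4 blue points) library, with the mean ± SD as bar and whiskers. The groups are apart in every panel except Psap, where Suz12 cKO replicate 2 lies within the wild type range.

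Per length, the parts of the pump stood at unequal levels. Summed over the paralogs at each position, subunit d was highest at 781 ± 47.2 RPKM in Suz12 cKO (SD, n = 5) and 873 ± 59.4 RPKM in wild type (SD, n = 4). Subunit c double prime stood at 334 ± 42.1 and 554 ± 81.0 RPKM, subunit F at 191 ± 33.6 and 324 ± 44.5 RPKM, and subunit G at 82.9 ± 6.49 and 132 ± 22.5 RPKM. The catalytic subunit A was at 82.5 ± 4.03 and 87.0 ± 3.49 RPKM and the H subunit at 65.5 ± 4.05 and 72.9 ± 6.79 RPKM.

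Subunits a and d each have paralogs, and their mix was compared as a share of RPKM within each library. Tcirg1, the a3 isoform of lysosomes and osteoclasts, made up 41.9, 42.6, 47.3, 39.3 and 44.8% of the summed RPKM of Tcirg1, Atp6v0a1 and Atp6v0a2 in Suz12 cKO, against 51.0, 57.5, 56.1 and 50.4% in wild type. No Suz12 cKO library reached the lowest wild type share, and the difference was -10.6 percentage points (exact two-sided permutation p = 0.00794, 0.0159 adjusted over the 2 shares tested). The sum over the a isoforms was 147 ± 13.4 RPKM in Suz12 cKO (SD, n = 5) and 138 ± 5.49 RPKM in wild type (SD, n = 4). Tcirg1 alone was at -0.22 (SE 0.11, adjusted p = 0.178) and Atp6v0a2 at 0.07 (adjusted p = 0.718). Atp6v0a1, called higher above (0.47, adjusted p = 0.00237), enters the same share, so the share is not a result separate from that call. For subunit d, Atp6v0d2 made up 75.1 to 78.5% in Suz12 cKO and 75.3 to 79.2% in wild type, a difference of -0.356 percentage points (exact permutation p = 0.722, and the same when adjusted). Atp6v0d2 had 1417, 1396, 1660.1, 1577 and 1517 CPM in Suz12 cKO and 1681, 1554, 1733 and 1817 CPM in wild type (log2 fold change -0.16, SE 0.08, adjusted p = 0.160). Atp6v0d1, the widely expressed form, had 304, 272, 298, 287 and 268 CPM in Suz12 cKO and 356, 276, 294 and 334 CPM in wild type (-0.14, SE 0.09, adjusted p = 0.299).

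**Figure D4:**
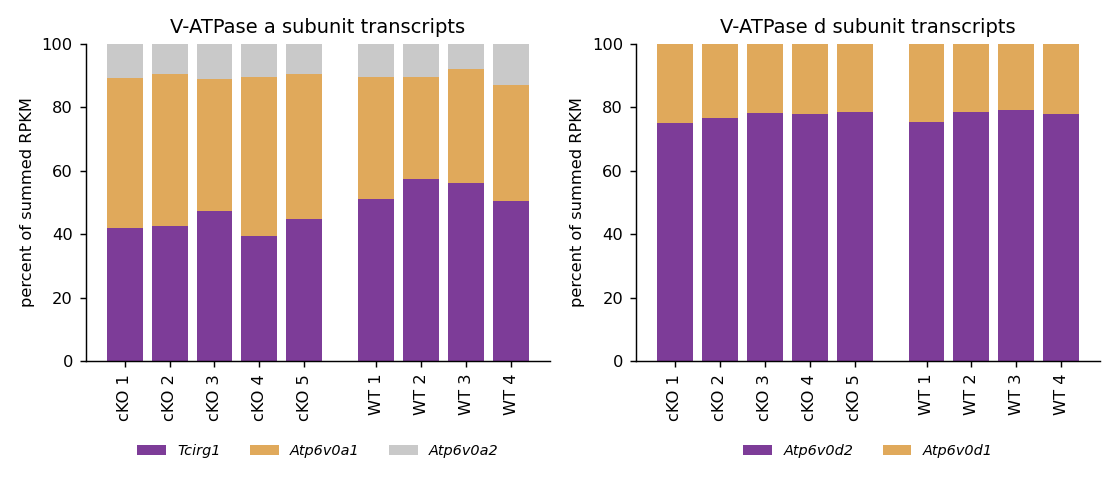
Share of summed RPKM (y axis, percent) of the a subunit paralogs and of the d subunit paralogs in each Suz12 cKO (cKO) and wild type (WT) library. Tcirg1 takes 39.3 to 47.3% in Suz12 cKO and 50.4 to 57.5% in wild type, while the d subunit mix lies in the same range in both groups.

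Gene length moved with the fold changes, and 3 of the 5 V-ATPase genes that fell are short. Over all tested genes, Spearman's rho of log2 fold change with length was 0.32 (12840 genes), and over the 44 members 0.51, a description across genes that share the same 9 libraries. Tested genes were cut into 4 length classes of near-equal size. In the shortest class (62 to 1655 bases) 27.9% of genes were lower in Suz12 cKO. That class held 7 members, all V-ATPase subunits, of which Atp6v0b (996 bases), Atp6v1f (635 bases) and Atp6v1g1 (1093 bases) were lower. The class from 2715 to 4162 bases, in which 11.5% of genes were higher, held Psap, Tfe3 and Atp6v0a1, but also Lamp2, and the longest class, with 14.7% higher, held Gm2a. A fit with a length curve for each library as an offset called 16.3% of all tested genes (6.79% higher and 9.49% lower) and, of the members, 2 higher and 6 lower. The same 6 members were lower in that fit, with smaller sizes for the short ones, at -0.48 for Atp6v0b, -0.33 for Atp6v1f (adjusted p = 0.0196) and -0.47 for Atp6v1g1. Atp6v1c1 was at -0.51, Atp6ap2 at -0.39 and Lamp2 at -0.52. Atp6v0a1 and Gm2a stayed called at 0.35 (adjusted p = 0.0139) and 0.33 (adjusted p = 0.0220), while Psap at 0.19 (adjusted p = 0.118) and Tfe3 at 0.22 (adjusted p = 0.0850) did not.

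**Figure D5:**
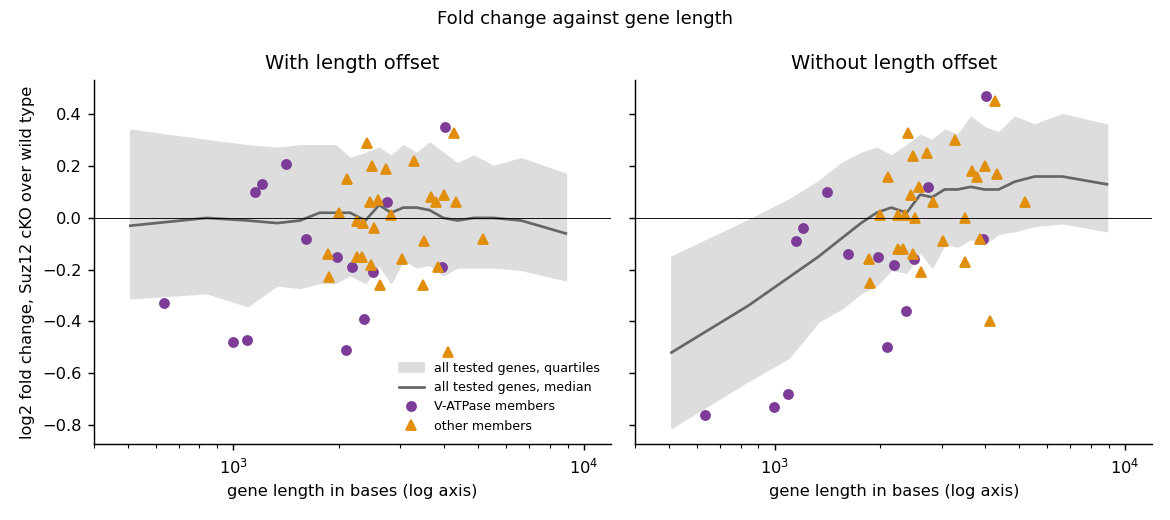
Log2 fold change (y axis) against gene length (x axis, log scale) with and without the length offset, for V-ATPase members (purple circles) and the other members (orange triangles) over the median and quartiles of all tested genes in 20 length bins. Without the offset the median of all genes drops towards short lengths, where Atp6v1f lies at -0.76 and Atp6v0b at -0.73, and with it these lie at -0.33 and -0.48, while Atp6v1c1 lies at -0.51 and Lamp2 at -0.52.

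The rest of the lysosomal system was read from 5 further lists. Of 17 other V-ATPase subunits and assembly factors 11 were tested, and 3 were lower and none higher (27.3% called, against 19.9% of all tested genes). Atp6v0e, the small e subunit of V0, had 249.9 ± 20.8 CPM in Suz12 cKO (SD, n = 5) and 436 ± 67.5 CPM in wild type (SD, n = 4). It fell by 0.80 on the log2 scale (SE 0.10, adjusted p = 0.000190), and with the length offset this short gene (797 bases) was at -0.46 (adjusted p = 0.000811). Vma21 and Ccdc115, which help assemble V0, were at -0.69 (adjusted p = 0.00152) and -0.36 (adjusted p = 0.0317). The 6 untested genes, among them Atp6v0a4 and Atp6v1b1, isoforms of kidney and other acid-secreting epithelia, did not pass the count filter. Of 34 tested other hydrolases 5 were lower and none higher (14.7% called, below the 19.9% of all tested genes), with a median of -0.09. The gamma-glutamyl hydrolase Ggh was at -0.86 (adjusted p = 0.000402), the dipeptidyl peptidase Dpp7 at -0.90 (adjusted p = 0.00115), the thiol reductase Ifi30 at -0.31 (adjusted p = 0.0154) and the ribonuclease Rnaset2a, which has a near-identical copy, at -0.34 (adjusted p = 0.0210). Ifi30 (982 bases) and Rnaset2a (962 bases) were not called with the length offset (-0.06 and -0.08). With 1 library left out, Ccdc115 was called in 3 of 9 fits, Rnaset2a in 6 and Ifi30 in 8, and the hydrolases lower numbered 9 without Suz12 cKO replicate 3, 3 without Suz12 cKO replicate 2 or 5, and 2 without wild type replicate 3.

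Of 30 other lysosomal membrane proteins and transporters 2 were higher and 4 lower, a share near the 19.9% of all tested genes. Laptm4a, a small membrane protein of late endosomes, had 368 ± 28.1 CPM in Suz12 cKO (SD, n = 5) and 645 ± 28.0 CPM in wild type (SD, n = 4). It fell by 0.81 on the log2 scale (SE 0.08, adjusted p = 2.96e-05). Cd63, a tetraspanin of late endosomes, had 105, 111, 253, 120.2 and 104 CPM in Suz12 cKO and 54.9, 50.3, 76.4 and 59.7 CPM in wild type (log2 fold change 1.20, SE 0.29, adjusted p = 0.0186), and 0.88 without Suz12 cKO replicate 3. The ion channel Tpcn1 was at 0.93 (adjusted p = 0.0197) and Lmbrd1, which exports vitamin B12, at -0.36 (adjusted p = 0.0145). Of 15 genes of enzyme delivery 3 were lower and none higher, again a share near 19.9%, and these are the 3 listed parts of the retromer, which returns sorting receptors to the Golgi. Vps29 was at -0.81 (adjusted p = 0.000207), Vps26a at -0.34 (adjusted p = 0.0175) and Vps35 at -0.30 (adjusted p = 0.0273). With 1 library left out, Tpcn1 and Vps26a were called in 7 of 9 fits, Lmbrd1 in 8, Vps35 in 6, and Vps29, Laptm4a and Cd63 in all 9. The membrane genes lower numbered 1 without wild type replicate 4 and 2 without Suz12 cKO replicate 2 or wild type replicate 1 or 3, those higher numbered 1 without Suz12 cKO replicate 2 or 5, and the delivery genes lower numbered 1 without wild type replicate 4. The spans of Tpcn1 and Vps29 overlap those of Iqcd and Fam216a. Of 19 genes of mTORC1 control 2 were higher and 6 lower (42.1% called, against 19.9%), with 1 higher in each of the 6 fits without Suz12 cKO replicate 1, 2, 4 or 5 or wild type replicate 1 or 4. Lamtor5 and Lamtor3, parts of the Ragulator that anchors mTORC1 to the lysosome, were at -0.80 (adjusted p = 0.000281) and -0.68 (adjusted p = 0.000615), and the GTPase Rraga at -0.53 (adjusted p = 0.00289). With the length offset 4 of these genes were lower, Lamtor1 (-0.17) and Lamtor4 (-0.29) no longer being called, and Lamtor5 was at -0.50 (adjusted p = 0.00231). Lamtor2 (571 bases) went the other way, from -0.16 (adjusted p = 0.227) without the offset to 0.29 with it, called higher (adjusted p = 0.0424). Fnip1, higher without the offset at 0.32 (adjusted p = 0.0250), was not called with it (0.15, adjusted p = 0.227). Rragd, a GTPase of the same family, had 1.80 to 2.49 CPM in Suz12 cKO and 0 to 0.379 CPM in wild type, where 2 libraries had no count and the whole group 14 (log2 fold change 3.66, SE 0.91, adjusted p = 0.0112).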

How the data were processed

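Polyadenylated RNA of sorted macrophages was sequenced in 9 libraries. Raw counts per Entrez gene and gene lengths were deposited, from featureCounts on mm10 per the submitters' processing notes. No source used here gives the aligner, versions, annotation or strand setting. The tables of single libraries hold the same counts as the joint table, which was used. A RefSeq table of GRCm38.p6 named 25275 of 27179 identifiers.

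Suz12 cKO was compared with wild type in R 4.3.3 with edgeR 4.0.16 (TMM scaling, filterByExpr by group, robust quasi-likelihood F-test, Benjamini-Hochberg over all tested genes, threshold 0.05). The SE is the log2 fold change over the root of the F statistic. The scripts were tested on simulated data. CPM and RPKM were computed here. Isoform shares used an exact permutation test of the group labels. Alternatives were DESeq2 1.42.0 with its own size factors and filter, limma 3.58.1 voom, other scalings and filters, equal depth, a loess length offset (span 0.5, centred per library), a replicate block and each library left out.

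The members and lists were chosen with earlier results of these data known. All 44 members are accounted for. Values in every library were set for the called members, the 4 most abundant per length, the MiT/TFE members and the d subunits. Up to 4 called genes with the smallest adjusted p were named from each further list. Atp6v0a4, Atp6v1b1, Tcirg1 and Tfec were named as paralogs, and the overlapping genes for their overlap. Lamtor1, Lamtor2, Lamtor4 and Fnip1 were named because their call changed with the length offset.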

Additional observations from a re-analysis of the deposited data

Results flagged for a closer look

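Of 88 gene-by-group sets of 4 or 5 libraries, 7 held a library far from the others of its group by Dixon's criterion, where chance gives about 1 in 20 (4.40). Replicate 3 of Suz12 cKO held 4 of them, each as the highest of its group. It had 1118 CPM of Man2b1 against 666 to 766 CPM in the other Suz12 cKO libraries. It had 856 CPM of Asah1 against 600.4 to 645 CPM, 688 CPM of Ppt1 against 509 to 537 CPM, and 159 CPM of Atp6v1f against 108 to 119 CPM. It was the highest of its group for 21 of the 44 genes. Replicate 4 of Suz12 cKO was low for Tfeb, at 68.7 CPM against 84.2 to 85.9 CPM. In wild type, replicate 3 was low for Manba, at 119.6 CPM against 149.6 to 154 CPM, and replicate 4 for Tpp1, at 305 CPM against 321 to 324 CPM.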

How the results depend on the processing

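Lamp2, Gm2a, Atp6v0b, Atp6v1c1, Atp6v1f, Atp6v1g1 and Atp6ap2 were called in the same direction in all 19 alternatives, Atp6v0a1 in 18, Tfe3 in 10 and Psap in 8. The members called lower numbered 6 in each alternative except 7 without Suz12 cKO replicate 3, which added Asah1. Where a value moved, the cause was not tested unless named. With DESeq2, 1753 genes were higher in place of 1152. DESeq2 fitted 18406 genes before its own filter, while the 12840 genes of edgeR are those left after filtering. With library size only, 1966 genes were higher, 9 members were higher (Arsb, Atp6v1b2, Gaa, Manba and Ppt1 were added) and the members' median was 0.09. On that scale the higher counts were 1 for the other V-ATPase genes, 3 for the other hydrolases, 1 for delivery and 4 for mTORC1 control, and the lower counts were 2 for hydrolases, 1 for membrane proteins and 1 for delivery. With the length offset 2 members were higher. Same-numbered libraries did not deviate together (correlations 0.04, 0.03, -0.06 and 0.11), and 1 of 4 pairs matched its own number best. The counts thus showed no pairing by number, but they cannot show that no pairing was made. As a replicate block, which leaves out Suz12 cKO replicate 5, the numbers gave 741 genes higher and 2 members higher. The higher counts were then 1 for other V-ATPase genes, 1 for membrane proteins and 0 for mTORC1 control. The Tcirg1 share then differed by -11.0 percentage points at an adjusted exact permutation p of 0.250, where 4 pairs cannot reach 0.05. The block with the length offset gave 453 genes higher and 803 lower, 1 member higher, and higher counts of 1 for membrane proteins and 0 for mTORC1 control; Atp6v0a1 was then at 0.33 with an adjusted p of 0.0734 by edgeR.

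Genes near 0 changed sign without a call. With the length offset Lamp1 was at -0.01, Glb1 at -0.02, Fuca1 at -0.04, Tpp1 at -0.09, Mitf at -0.08, Atp6v0c at 0.10 and Atp6v1e1 at 0.13. With the block as well, Lamp1, Glb1 and Tfeb were at -0.01, Tpp1 at -0.09, Mitf at -0.11, Atp6v0c at 0.10 and Atp6v1e1 at 0.15. With library size only, Gla was at 0.02, Neu1 and Atp6v0c at 0.03, Atp6v1a at 0.04 and Atp6v1e1 at 0.07. With RLE scaling Glb1 was at -0.00 and Fuca1 and Tpp1 at -0.01. With DESeq2 Fuca1 was at -0.01 and Tpp1 at -0.00, with voom Fuca1 at -0.03, and at equal depth Glb1 at -0.02 and Fuca1 at -0.01. Over the 9 fits without 1 library, 2 to 3 members were higher. The higher counts ran from 0 to 1 for other V-ATPase genes, 0 to 1 for hydrolases, 1 to 3 for membrane proteins and 1 to 3 for mTORC1 control, and the lower counts from 2 to 9 for hydrolases, 1 to 4 for membrane proteins and 1 to 3 for delivery. The Atp6v0d2 share ran from -1.15 to 0.204 and the Tcirg1 share from -11.7 to -9.32. Without a Suz12 cKO library the Tcirg1 share had an adjusted exact permutation p of 0.0571. Before adjustment its p was the smallest that 4 against 4 libraries allow. The adjusted value also depends on the Atp6v0d2 share, whose adjusted exact permutation p ran from 0.571 to 0.800 in these fits. Lamp1 ran from -0.03 to 0.04, Mcoln1 from -0.07 to 0.08, Glb1 from -0.06 to 0.13, Fuca1 from -0.13 to 0.08, Tpp1 from -0.01 to 0.02 and Atp6v1e1 from -0.10 to 0.01. Depth overlapped between the groups only through Suz12 cKO replicate 4 (18.6 M counts). The other Suz12 cKO libraries held 34.8 to 45.6 M, above all of wild type (13.8 to 25.3 M). The group means were 36.5 and 21.6 M (exact two-sided permutation p = 0.0556). Low counts, such as the 14 of Rragd in wild type, limit precision.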
